A study of Mus musculus with 4 samples.

Results

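Interferon response genes are described here in inguinal mammary glands that were taken from mice at postnatal day 10. The 37 genes are a list of known interferon-induced genes, chosen with earlier results of these data known, so their counts are descriptions. Each was read through its brightest probe set that matches a single gene. By this rule 31 of the 37 were measured, out of 17097 genes with such a probe set. Isg15, Oas1a, Ifi44, Bst2, Tap1 and Tap2 were not analysed here. The list was divided into 27 genes of the ISGF3 type, 23 of them measured, and 10 genes of the GBP, IRG and antigen-processing type, 8 of them measured. The second class includes Irf1.

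The study used 4 Affymetrix arrays. The 2 wild-type arrays are labelled Mt1-mmp(+/+) and the 2 knockout arrays Mt1-mmp(-/-), each array called a biological replicate. The knockout is global and removes the membrane-anchored matrix metalloproteinase that the array lists as Mmp14, and both genotypes were littermates on an outbred Swiss Black background. The labels do not say whether an array held RNA of 1 mouse or of several. The gland was taken intact, so epithelium, fat, vessels, skin or muscle caught in the dissection and immune cells can all contribute RNA. In such tissue fewer cells of a type and less RNA per cell cannot be told apart. The comparison is between glands with and without the protease early in postnatal life.

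Type I interferons signal through a receptor made of Ifnar1 and Ifnar2 to ISGF3, a complex that holds Stat2 and Irf9 and binds the interferon-stimulated response element in the promoters of antiviral genes such as Rsad2 and the Ifit family. Interferon gamma, made mainly by T and NK cells, signals through Ifngr1 and Ifngr2 to gamma-activated sites in promoters and induces Irf1. This response drives the guanylate-binding proteins (Gbp genes), the immunity-related GTPases (IRG genes such as Iigp1, Igtp and Irgm1) and the immunoproteasome and peptide transporter genes of antigen processing. The classes overlap, since many genes of either class respond to both kinds of interferon.

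Promoter sequence is shown for genes on which the results turn, to let the 2 classes be set side by side. Of the 37 genes 27 had an entry in the RefSeq promoter table of the build GRCm38.p6, which covers 250 bases before to 50 bases after each annotated start. The response element core was searched on both strands as GAAA, any 2 bases and GAAA again. It was in a promoter of 14 of these 27 genes, 10 of 19 of the ISGF3 type and 4 of 8 of the other type. Counted by promoter, it was in 46.7% of the 30 promoters of these genes and in 3.44% of all 32851 in the table. The gamma-activated core TTCNNNGAA, which reads the same on both strands, was in 9 of the 27 genes. By promoter it was in 30.0% of the 30 and in 8.3% of all. In Bst2 and Ifitm3 matches of the 2 cores overlapped. A match is a description of letters and no evidence of binding. Each stretch below runs 5′ to 3′ on the gene's strand, with matches of either core in capitals.
Rsad2 (chr12:26456543-26456592, minus strand): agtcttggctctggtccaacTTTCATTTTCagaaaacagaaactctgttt
Ifit1 (chr19:34640765-34640833, plus strand): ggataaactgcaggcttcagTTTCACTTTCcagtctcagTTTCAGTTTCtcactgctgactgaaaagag
Ifit3 (chr19:34583353-34583436, plus strand): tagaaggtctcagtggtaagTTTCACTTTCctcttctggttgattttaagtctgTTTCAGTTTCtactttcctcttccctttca
Gbp2 (chr3:142620584-142620633, plus strand): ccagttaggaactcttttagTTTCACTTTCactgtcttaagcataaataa
Gbp3 (chr3:142559979-142560034, plus strand): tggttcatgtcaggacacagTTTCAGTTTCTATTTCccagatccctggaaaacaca
Irgm1 (chr11:48871421-48871470, minus strand): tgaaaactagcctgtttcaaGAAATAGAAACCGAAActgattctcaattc
Igtp (chr11:58199491-58199551, plus strand): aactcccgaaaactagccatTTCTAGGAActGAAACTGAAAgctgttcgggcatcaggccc
Irf1 (chr11:53769904-53769952, plus strand): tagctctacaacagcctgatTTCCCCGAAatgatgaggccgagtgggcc
In Igtp a gamma-activated core starting 45 bases before the start is followed by a response element core at 34 bases. Gbp3 and Irf1 have a second annotated start, not shown. In Irf1 the capitals are a gamma-activated core at 90 bases before the start, and no response element core was in that window. The first 3 genes are of the ISGF3 type and the next 4 of the GBP and IRG type, and both sets carry the response element core, at 24 to 156 bases before the start. The response element core was not in this window for 13 of the 27 genes. These were Ifit2, Irf7, Oasl1, Oasl2, Ifi35, Ifi44, Xaf1, Trim25, Samhd1, Irf1, Psmb8, Psmb9 and Tap1. Mx1, Mx2, Usp18, Zbp1, Dhx58, Iigp1, Parp14, Oas2, Ifi27 and Tap2 had no entry.

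The 4 arrays had medians of 4.92, 4.92, 4.92 and 4.98, and all values are deposited log2 expression values. Mmp14 was at 8.92 and 8.73 on the wild-type arrays and at 5.83 and 5.68 on the knockout arrays, a difference of -3.07 (limma SE 0.12, n = 2 per group, Benjamini-Hochberg adjusted p = 0.0738 over all genes tested). Whether its probe set lies in the deleted part is not given. Both knockout arrays stood apart in tissue markers. Relative to the wild-type mean, 10 skeletal muscle markers had a median of 5.77 in knockout replicate 2. The median of 12 markers of epidermis and hair follicle was 2.59 in knockout replicate 1. The wild-type arrays also differed, with wild-type replicate 2 lower than replicate 1 by a median of 1.02 in luminal epithelial markers and higher by 1.90 in muscle markers. Of 6 adipocyte markers, which define the fat pad, 5 were above the brightness limit on all 4 arrays. The exception was Lep, the gene of the fat hormone leptin, at 10.71 on both wild-type arrays and at 6.95 and 4.48 on the knockout arrays. Both knockout arrays were below wild type in 5 of 5 erythroid markers (median -1.37), beside 26.6% of all genes. The same held in 5 of 8 blood endothelium markers, with a median of -0.29. Luminal epithelial markers had a median of 0.84 and 6 of 10 above wild type on both, beside 23.5% of all genes. The part of these differences in the results below was not tested beyond leaving out each array.

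Most interferon response genes were lower in the knockout gland than in wild type, by amounts that did not pass the test. Both knockout arrays lay below both wild-type arrays in 20 of the 31 genes, or 64.5%, where 26.6% of all 17097 genes did so. Trim25 was the 1 gene above in both knockout arrays, against 23.5% of all genes, and the groups overlapped in the other 10. Without wild-type replicate 2, where fewer values are compared, Ifih1 and Irf1 joined Trim25, which made 3. In 14 of the 31 genes both knockout arrays were below and the wild-type arrays also lay closer together than the genotypes, as in 24.9% of all genes. Of these 14, 13 were of the ISGF3 type. The median difference was -0.38 on the log2 scale, beside -0.001 over all genes. At a difference of at least 0.5, 13 of 31 were lower (6.8% of all genes) and 1 was higher (5.42% of all genes).

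No interferon response gene was called. Of the 24 that reached the brightness limit of 4.94, limma with Benjamini-Hochberg adjustment over 11078 genes called 0 lower and 0 higher, where it called 0.0% of all genes in either direction. At an unadjusted p under 0.05 there were 5 lower and 1 higher among the 24, beside 12.1% and 9.69% of the genes tested. At an adjusted p under 0.10 limma called 1 of them lower, Rsad2, and 0 higher, where it called 0.0903% and 0.0632% of all genes tested. Without knockout replicate 1 it called 3 of the 24 lower and 1 higher, beside 24.6% and 13.1% of all genes tested. Without knockout replicate 2 it called 2 lower and 1 higher, beside 4.99% and 6.73%. With no brightness limit it again called 0 of all 31, with 8 lower and 1 higher at an unadjusted p under 0.05, where 9.31% and 7.88% of all genes were. The 7 genes under the limit, Ifit1, Oasl1, Oasl2, Mx1, Usp18, Zbp1 and Dhx58, lie near the array's background, where RMA compresses differences.

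The wild-type arrays lay closer together in the ISGF3-type genes than in the other class. Among the 23 ISGF3-type genes the wild-type arrays differed by a median of 0.14 in size, and 1 of the 23 lay at least 0.5 apart. Over all genes the median gap was smaller, 0.076 in size, and 284 of 17097 lay at least 0.5 apart. Among the 8 GBP, IRG and antigen-processing genes the wild-type gap had a median of 1.10, and all 8 were higher in wild-type replicate 2 by at least 0.5, as 1.15% of all genes were. The median genotype difference was -0.29 for the first class and -0.88 for the second. The wild-type gap was larger in size than the genotype difference in 8 of 23 genes of the ISGF3 type and in 7 of 8 of the other type, against 34.2% of all genes. No test of the difference between the classes was run.

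**Figure D1:**
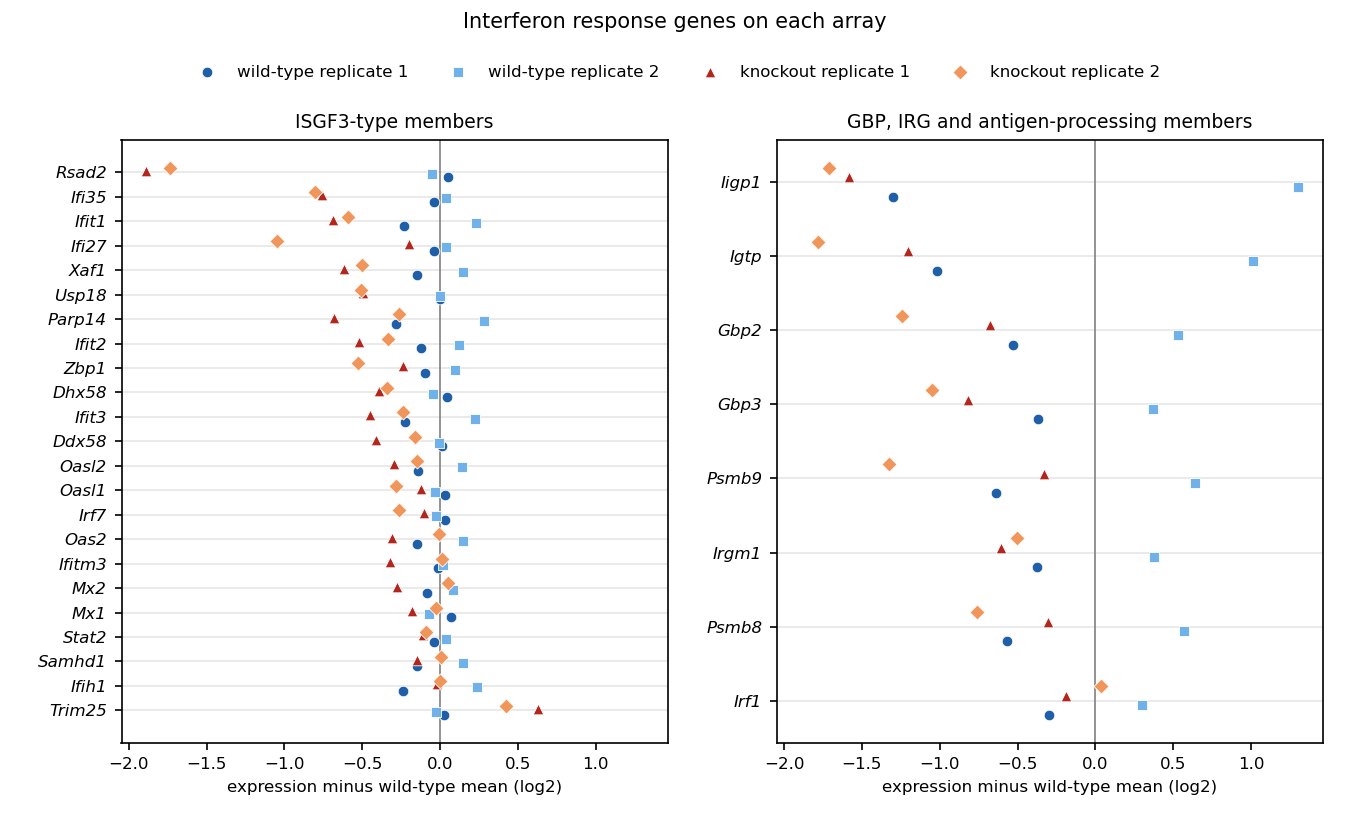
Expression of each measured interferon response gene on each of the 4 arrays, as the log2 value minus that gene's wild-type mean, with genes sorted by their genotype difference within each class. Rsad2 and Ifi35 show close pairs that lie apart by genotype, whereas for Iigp1 and Igtp wild-type replicate 2 stands alone, 2.61 and 2.03 above wild-type replicate 1.

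The size of the difference moved with the choice of wild-type array, more so for the GBP, IRG and antigen-processing genes. Against wild-type replicate 1 alone, the knockout mean was lower by a median of 0.27 in the GBP, IRG and antigen-processing genes, and against wild-type replicate 2 alone by 1.39. For the ISGF3-type genes the corresponding medians were -0.21 and -0.33. Both knockout arrays still lay below wild-type replicate 1 in 16 of 23 ISGF3-type genes and in 5 of the 8 others, where 34.6% of all genes did. The 5 were the GTPase genes. The median of all 31 genes moved from -0.38 to -0.21 without wild-type replicate 2.

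**Figure D2:**
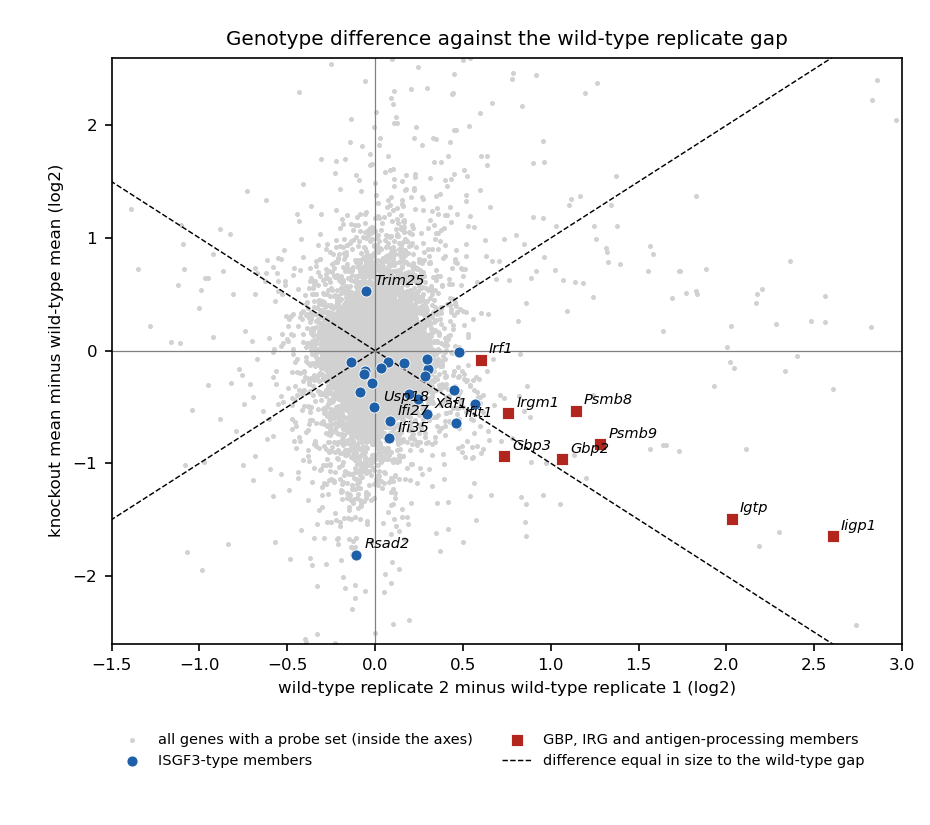
Genotype difference (vertical, log2) of each gene against the gap between the 2 wild-type arrays (horizontal, log2), with the genes of the whole array that fall inside the axes in grey and dashed lines where difference and gap are equal in size. GBP, IRG and antigen-processing genes lie to the right, at gaps of 0.60 to 2.61, and the ISGF3-type genes between -0.14 and 0.57, with Rsad2 at a gap of -0.11 and a difference of -1.81.

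Rsad2, an antiviral effector, had the largest difference of the 31 genes in size with all 4 arrays. Without wild-type replicate 1 those of Iigp1 (-2.95) and Igtp (-2.51) were larger than that of Rsad2 (-1.76), and without knockout replicate 1 that of Igtp (-1.78) was larger than that of Rsad2 (-1.73). With the probe sets of a gene averaged, Iigp1 (-1.71) and Igtp (-1.49) were also ahead of Rsad2 (-1.34). Rsad2 encodes viperin, a radical enzyme that makes a nucleotide analogue which stops viral RNA synthesis. It was at 8.98 and 8.87 on the wild-type arrays and at 7.04 and 7.19 on the knockout arrays. The knockout pair thus lay well below a close wild-type pair, and the difference of -1.81, or 3.51-fold, was far larger than the gap of 0.11 between the wild-type arrays. The limma SE was 0.11 and the adjusted p 0.0910 (n = 2 per group), which misses 0.05. It ranged from 0.00567 without knockout replicate 1 to 0.834 over the alternatives, and without knockout replicate 2 it was 0.0228, the lone knockout array being assumed to spread as the wild-type arrays did. Without knockout replicate 1 limma called 24.6% of all tested genes lower, and without knockout replicate 2 4.99%.

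Both other probe sets of Rsad2 separated the genotypes too. The middle one gave 7.01 and 6.98 against 5.62 and 5.45, a difference of -1.46, and the dimmest 5.55 and 5.53 against 4.93 and 4.64, a difference of -0.75. All 3 therefore had a wild-type gap of at most 0.11, and the difference was smaller in the dimmer probe sets. The probe sets are annotated to the same gene and read the same RNA, so they are not independent replicates. Over the list, 13 genes had 17 further probe sets, of which 13 were lower and 4 higher in the knockout mean, and 8 of the 17 were under the brightness limit.

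The other effectors differed little. Ifitm3, which blocks virus entry from endosomes, differed by -0.15, with knockout replicate 1 below the other 3 arrays. Samhd1, an enzyme that breaks down deoxynucleotides, differed by -0.07, and the dynamin-like GTPase genes Mx1 and Mx2 by -0.10 and -0.11. In all 4 genes the groups overlapped. The wild-type gap was larger than the difference in Samhd1, Mx1 and Mx2 and smaller in Ifitm3.

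**Figure D3:**
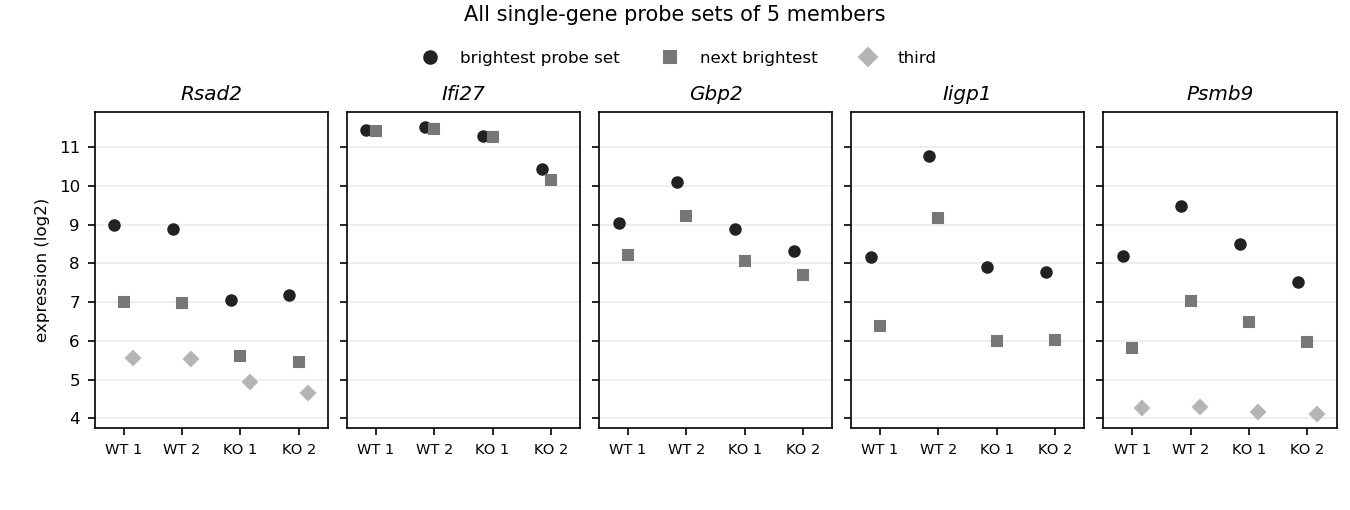
Log2 expression on each array (WT, wild type, and KO, knockout, with replicate number) for all single-gene probe sets of 5 genes. The 3 Rsad2 probe sets are lower in both knockout arrays, both Iigp1 and both Gbp2 probe sets are highest in wild-type replicate 2, and both Ifi27 probe sets are lowest in knockout replicate 2.

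Usp18 and Trim25, both tied to protein modification by Isg15, lay on opposite sides of wild type. Usp18 encodes the protease that takes Isg15 off its targets and also damps signalling at Ifnar2. It was at 4.90 and 4.89 on the wild-type arrays and at 4.40 and 4.39 on the knockout arrays, so that each pair was nearly equal. Its difference was -0.50 with an SE of 0.07 (n = 2 per group), and with no brightness limit limma gave an adjusted p of 0.119. These values lie under the brightness limit, so a difference there is read with less certainty.

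Trim25, a ubiquitin ligase that acts on the RNA sensor encoded by Ddx58, was at 8.19 and 8.14 on the wild-type arrays and at 8.79 and 8.59 on the knockout arrays. The groups did not overlap, and the difference of 0.53 (SE 0.12, n = 2 per group, limma adjusted p = 0.149) exceeded the wild-type gap of 0.05. Without knockout replicate 1 limma called Trim25, with an adjusted p of 0.0277, and without knockout replicate 2 likewise, with 0.0356, where it called 13.1% and 6.73% of all tested genes higher. Over all alternatives its adjusted p ran up to 0.859. Parp14, an ADP-ribosyltransferase, was at 6.82 and 7.39 against 6.42 and 6.84, where knockout replicate 2 overlapped wild-type replicate 1. Its difference of -0.47 was smaller than its wild-type gap of 0.57, and its other, dimmer probe set differed by 0.06.

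Ifi35, Xaf1 and Ifi27 were lower in both knockout arrays, as were 26.6% of all genes. Ifi35, which encodes an interferon-induced leucine zipper protein, was at 8.27 and 8.34 on the wild-type arrays and at 7.55 and 7.50 on the knockout arrays. Here too both pairs were close and apart by genotype, and the difference of -0.78 (SE 0.09, n = 2 per group) had a limma adjusted p of 0.105. Without knockout replicate 1 it was 0.0116 and without knockout replicate 2 0.0320, and over all alternatives it ran up to 0.846.

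Xaf1, a pro-apoptotic partner of the inhibitor of apoptosis proteins, was at 8.43 and 8.72 against 7.96 and 8.07, with no overlap. Its difference was -0.56 (SE 0.14, n = 2 per group, limma adjusted p = 0.167), and its other probe set, under the brightness limit, differed by 0.13. Ifi27, a small mitochondrial and nuclear membrane protein, was at 11.45 and 11.53 on the wild-type arrays and at 11.29 and 10.44 on the knockout arrays. Its difference of -0.62 lay mostly in knockout replicate 2, the array with bright muscle markers, since it was -0.20 without that array and -1.05 without knockout replicate 1. In the last case limma called it, with an adjusted p of 0.00844. With all arrays the adjusted p was 0.334, and across the alternatives it reached 0.866.

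The products of the Ifit and Oas genes bind viral RNA or make the messenger that activates RNase L. These genes were lower in the mean in 6 of 6. In both knockout arrays 5 of 6 were lower, where 26.6% of all genes were. Ifit1 was at 4.74 and 5.21 on the wild-type arrays and 4.28 and 4.38 on the knockout arrays, a difference of -0.64 beside a wild-type gap of 0.46. Its values all lay near or under the brightness limit, and its limma adjusted p with no limit was 0.224. Ifit2 differed by -0.43 and Ifit3 by -0.35, with wild-type gaps of 0.24 and 0.45. Ifit3 has a near-identical neighbour, Ifit3b, so its signal cannot be given to it alone.

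Oasl1, Oasl2 and Oas2 differed by -0.21, -0.22 and -0.16, and Oas2 was the 1 of the 6 whose groups overlapped. In Ifit3, Oas2 and Oasl2 the wild-type gap was larger than the difference. In 5 of the 6 genes wild-type replicate 2 was the higher wild-type array.

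Nucleic acid sensors were lower in the mean in 4 of 4, by 0.38 at most. Ddx58 encodes a cytosolic sensor of viral RNA ends and differed by -0.29, while its related regulator Dhx58 differed by -0.37 and the Z-form nucleic acid sensor gene Zbp1 by -0.38. These 3 were lower in both knockout arrays, as were 26.6% of all genes. Ifih1, the sensor of long double-stranded RNA, differed by -0.01, with both knockout arrays between the wild-type arrays at 6.49 and 6.96. The dimmer probe sets of Ddx58 differed by -0.13 and 0.08 and those of Dhx58 by -0.05 and 0.07. The other Zbp1 probe set differed by -0.03, with overlapping groups.

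The transcription factors of the list differed little. Irf7, which amplifies type I interferon, was at 5.88 and 5.82 on the wild-type arrays and 5.74 and 5.58 on the knockout arrays. Stat2, an ISGF3 subunit, was at 5.13 and 5.20 against 5.05 and 5.07. Both genes were lower in both knockout arrays, as were 26.6% of all genes. Their differences of -0.18 and -0.10 had limma adjusted p of 0.385 and 0.554 (SE 0.11 and 0.09, n = 2 per group). Irf1, the factor of the interferon gamma class, was at 8.04 and 8.64 on the wild-type arrays and 8.15 and 8.37 on the knockout arrays. Both knockout values lay between the wild-type values, and its difference was -0.08.

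The GBP and IRG genes encode GTPases that attack the membranes of intracellular vacuoles in which pathogens live. All 5 were lower in both knockout arrays, beside 26.6% of all genes. All 5 were also higher in wild-type replicate 2 than in replicate 1, as were 8385 of 17097 genes. Iigp1 was at 8.17 and 10.78 on the wild-type arrays and at 7.89 and 7.76 on the knockout arrays. The wild-type arrays lay 6.08-fold apart, and the knockout arrays were near the lower of them. The difference of -1.65 had an SE of 0.93 (n = 2 per group) and a limma adjusted p of 0.374. Against wild-type replicate 1 it was -0.35 and against wild-type replicate 2 -2.95. The other Iigp1 probe set gave 6.38 and 9.18 against 5.99 and 6.01, the same pattern.

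Igtp was at 6.36 and 8.39 on the wild-type arrays and 6.18 and 5.60 on the knockout arrays. Its wild-type arrays were 4.08-fold apart, and its difference was -1.49 (SE 0.76, n = 2 per group, limma adjusted p = 0.336). Irgm1, a regulator of the other IRG proteins, was at 7.48 and 8.24 against 7.26 and 7.36. The difference of -0.56 was smaller than its wild-type gap of 0.76.

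Gbp2 was at 9.03 and 10.10 on the wild-type arrays and 8.89 and 8.32 on the knockout arrays, a difference of -0.96 (SE 0.44, n = 2 per group, limma adjusted p = 0.296) beside a wild-type gap of 1.07. This probe set can match several transcripts, and the other one differed by -0.83 with a gap of 1.01. Gbp3 was at 8.28 and 9.02 against 7.83 and 7.60. Its difference of -0.93 (SE 0.29, n = 2 per group, limma adjusted p = 0.198) was larger than its wild-type gap of 0.74, and it was the 1 gene of the 8 for which this held. Gbp genes are close relatives, so signal may be shared among them.

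Psmb8 and Psmb9 did not separate by genotype. They encode inducible catalytic subunits of the immunoproteasome that shape peptides for MHC class I. Psmb8 was at 8.82 and 9.96 on the wild-type arrays and 9.08 and 8.63 on the knockout arrays, and Psmb9 at 8.20 and 9.48 against 8.51 and 7.51. For both genes knockout replicate 1 lay above wild-type replicate 1, and the wild-type gaps of 1.14 and 1.28 exceeded the differences of -0.53 and -0.83. Without wild-type replicate 2 the difference of Psmb8 was 0.04. A second Psmb9 probe set differed by -0.18 with a wild-type gap of 1.20, and the dimmest by -0.14 with a gap of 0.01. Psmb10, the remaining inducible subunit and not one of the 37 genes, was at 9.35 and 9.94 against 9.22 and 9.14. Its groups did not overlap, and its difference of -0.47 was smaller than its wild-type gap of 0.59.

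Other genes of the pathway were read from lists by function, 82 genes in all with 70 measured, and limma called 0 of the 56 tested, with 17 lower and 2 higher at an unadjusted p under 0.05 (12.1% and 9.69% of all genes tested). Of the 70, 39 (55.7%) were lower and 7 (10.0%) higher in both knockout arrays, with the median at -0.22, where 26.6% and 23.5% of all genes were. Of 6 measured interferon genes 5 were under the brightness limit and the differences ran from -0.14 to 0.05. The receptor genes were Ifnar1 (-0.29), Ifnar2 (-0.53), Ifngr1 (-0.06), Ifngr2 (-0.30), Ifnlr1 (0.02) and Il10rb (-0.08). Ifnar2, an ISGF3-side receptor chain, was at 9.95 and 10.05 on the wild-type arrays and 9.66 and 9.29 on the knockout arrays, and 3 of the 6 receptor genes were lower in both knockout arrays. The other Ifnar2 probe sets, both above the brightness limit, differed by 0.005 and -0.02, with overlapping groups. The other Ifngr2 probe set, also above the limit, differed by -0.60, with both knockout arrays below wild type. The other Il10rb probe set, under the limit, differed by 0.05.

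Irf9, the DNA-binding subunit of ISGF3, was at 6.56 and 6.64 on the wild-type arrays and 6.27 and 6.26 on the knockout arrays. The pairs did not overlap, and the difference was -0.34 (SE 0.09, n = 2 per group, limma adjusted p = 0.180). Irf9, Psme2 (-0.54) and Psme1 (0.02) lie 65, 63 and 61 annotated genes from Mmp14 on chromosome 14, and 0 of the 37 listed genes is on that chromosome. Among 11 signalling genes 5 (45.5%) were lower and 4 (36.4%) higher in both knockout arrays, with the median at -0.05. Over all genes these shares were 26.6% and 23.5%. Of the 11, Irf8, a factor of the myeloid lineage, had the most negative difference, at 6.44 and 6.71 against 5.24 and 5.72 (-1.09). Of 12 sensing genes 6 (50.0%) were lower and 2 (16.7%) higher, and Tlr3, a sensor of double-stranded RNA in endosomes, differed by -0.68.

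Further interferon-induced genes outside the 37 showed both patterns. Of 27 measured, 18 (66.7%) were lower and 1 (3.7%) higher in both knockout arrays, and 11 were lower by at least 0.5. Over all genes these shares were 26.6%, 23.5% and 6.8%. Rtp4, a chaperone of membrane receptors, was at 8.97 and 9.21 on the wild-type arrays and 7.85 and 7.98 on the knockout arrays. Isg20, an RNA exonuclease, was at 8.27 and 8.02 against 6.81 and 7.21. For both the pairs lay more than 2-fold apart by genotype (2.25-fold and 2.20-fold) with wild-type gaps of 0.24 and 0.25. The other Rtp4 probe set, under the brightness limit, differed by -0.05.

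Lgals3bp (-0.75), Cmpk2 (-0.75), Ifi203 (-0.67) and Parp9 (-0.60) were lower in both knockout arrays as well, each with a wild-type gap under its difference. The other Ifi203 probe set, above the brightness limit, differed by -0.14 with a gap of 0.17. The other Cmpk2 probe set, under the limit, differed by 0.02. Cmpk2 lies beside Rsad2 in the genome and is induced with it. In contrast, Tgtp1, an IRG gene with near-identical copies, was at 7.73 and 10.47 on the wild-type arrays and 6.85 and 6.47 on the knockout arrays. Its difference of -2.44 stood beside a wild-type gap of 2.74. The IRG genes Irgm2 and Ifi47 and the chemokine gene Cxcl9, a standard interferon gamma target, also had wild-type gaps (1.64, 1.13 and 1.66) larger than their differences (-0.84, -0.93 and -0.84). The chemokine gene Ccl5 differed by -1.36 beside a gap of 1.05. In the list of MHC class I genes and their loading factors, 5 of 8 were lower and 0 higher in both knockout arrays. Over all genes 26.6% and 23.5% were. The median of this list was -0.35. The wild-type gap was larger than the difference in 4 of these 8 genes, and all 8 were higher in wild-type replicate 2 than in replicate 1.

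**Figure D4:**
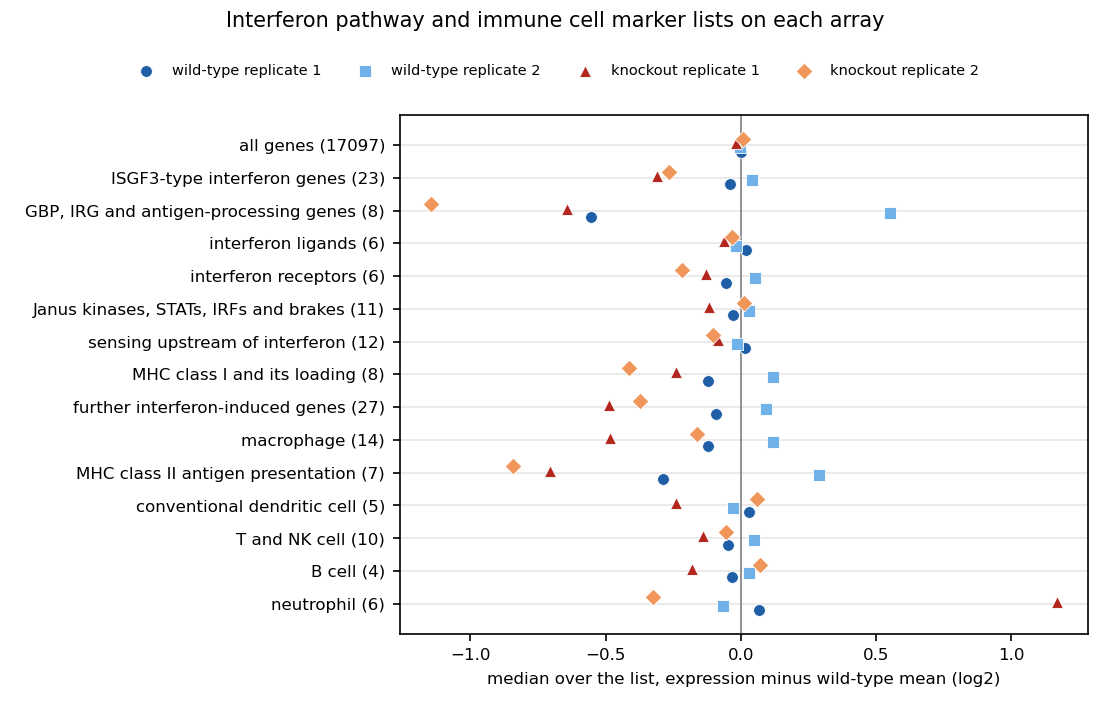
Median of each list on each array, as log2 expression minus the wild-type mean, with the number of measured genes in brackets. ISGF3-type genes lie at -0.31 and -0.26 in the knockout arrays and within 0.04 of zero in wild type, whereas GBP, IRG and antigen-processing genes lie at -0.55 and 0.55 on the wild-type arrays and at -0.64 and -1.15 on the knockout arrays. The 2 wild-type values of a gene mirror each other around their mean, and opposite gaps cancel in these medians. The median wild-type gap in size was 0.14 in the ISGF3-type genes and 1.10 in the other class.

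Markers of immune cells were read on the same arrays. Both knockout arrays were below wild type in 7 of 14 macrophage markers and above it in 1, where the median was -0.33 with a median wild-type gap of 0.24. Their summed level on the log2 scale was 12.42 and 12.72 on the wild-type arrays and 12.14 and 12.34 on the knockout arrays. Both were below wild type in 6 of 7 MHC class II genes, where the median was -0.85 with a wild-type gap of 0.58 and summed levels of 10.23 and 10.96 against 9.80 and 9.38. Over all genes 26.6% were below wild type on both knockout arrays and 23.5% above. Limma called 0 of either list. At an unadjusted p under 0.05, 4 and 5 were lower and 1 and 0 higher, beside 12.1% and 9.69% of all genes tested.

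Wild-type replicate 2 was above replicate 1 in 6 of 7 class II genes, 14 of 14 macrophage markers and 9 of 10 T and NK cell markers. Over all genes it was above in 8385 of 17097. The wild-type gap exceeded the genotype difference in 1 of 7, 2 of 14 and 5 of 10 of these markers, against 34.2% of all genes. Markers of T and NK cells, which are the main makers of interferon gamma, had a median of -0.10, and 5 of the 10 were under the brightness limit. Their summed levels were 8.47 and 8.68 on the wild-type arrays and 8.36 and 8.57 on the knockout arrays.

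Conventional dendritic cell and B cell markers had medians of -0.05 and -0.05, and neutrophil markers 0.05 with 1.17 in knockout replicate 1. The plasmacytoid dendritic cell list had a median of 0.08, but Siglech was not analysed here, and Cox6a2, also a muscle gene, was bright in knockout replicate 2 at 10.77. No detection calls were used, so none of these markers can be called absent. The part of any of these cells in the interferon values was not tested.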

How the data were processed

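RNA of intact glands (4 samples) was labelled with a kit that primes at the 3-prime end and hybridised to Affymetrix arrays, per the labels' protocols. The submitters' processing notes name RMA and affy, with no version, as the authors' tools. The deposited values are on a log2 scale, read from the values, which run from 3.16 to 13.7. RMA makes probe intensities alike across arrays before it summarises them, so a shift of most genes would not be seen. The summarised values were close but not equal, with array medians of 4.92, 4.92, 4.92 and 4.98. Of 45141 probe sets 28898 match 1 gene, 551 several and 15692 none in the array annotation. Entrez identifiers of 28689 matched RefSeq genes of GRCm38.p6. Each of 17097 genes was read through its brightest probe set by the mean of 4 arrays. Genes with a mean of at least 4.94, the median of all probe sets, were tested (11078).

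The genotype comparison used lmFit and eBayes of limma 3.58.1 under R 4.3.3, no covariate, with Benjamini-Hochberg adjustment at 0.05. A run on simulated data checked only that the fit returned added differences in the mean. It was not used to judge the calls. The members, classes and lists were chosen with earlier results of these data known, so their counts and medians are descriptions. Values on each array are given for members with a difference or wild-type gap of at least 0.5 and for transcription factors, and pathway genes are named at a difference of 0.5, except receptors and Irf9. Psmb10, Psme1, Lep, Cox6a2 and Siglech were named after their values were seen. Alternatives were other filters, probe set rules, scalings, limma options, the replicate number as a block and each array left out. The number of arrays limits the precision, and p-values measure the spread between these arrays.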

Additional observations from a re-analysis of the deposited data

How the results depend on the processing

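Dim genes lie near background. Limma called 0 interferon response genes under the main setting and 0 under the other filters, probe set rules, scalings and limma options tried. Leaving out 1 array gave 0 to 3 genes lower and 0 to 1 higher, where of 11078 genes tested limma called 2725 lower and 1455 higher without knockout replicate 1, 553 and 746 without knockout replicate 2, and 0 without either wild-type array. The 3 without knockout replicate 1 were Rsad2, Ifi35 and Ifi27 and the 2 without knockout replicate 2 were Rsad2 and Ifi35, and Trim25 was called higher in both cases. At an adjusted p under 0.10 the count was 1 lower, Rsad2. Over all measured genes the median difference of -0.38 was -0.56 among the 15 genes above the 75th percentile of brightness, -0.22 when probe sets of a gene were averaged, and -0.50 to -0.21 with each array left out. For the ISGF3-type genes (-0.29) these values were -0.42, -0.21 and -0.33 to -0.21. For the GBP, IRG and antigen-processing genes (-0.88) the range with an array left out was -1.39 to -0.27, and without wild-type replicate 2 it was -0.27. Genes lower in both knockout arrays numbered 20, and 9 of the 15 above the 75th percentile, since fewer genes were counted, and 21 to 29 with an array left out. Genes higher in both numbered 1 to 3. Leaving out an array makes both counts easier to meet, since fewer values are compared. Without wild-type replicate 2 the count was 21, where 34.6% of all genes were lower in both, beside 26.6% with all arrays. For the other arrays left out, for the 75th percentile and for genes higher in both, the share of all genes was not counted. Those counts are therefore not read as a result about these genes. Of 449 differences of single genes under alternatives 439 kept their direction. Other filters, limma options and the replicate block leave a gene's difference as it is, so under those settings no reversal was possible. Ifih1 turned to 0.003 after quantile normalisation and ran from -0.25 to 0.23 with an array left out. Mx2 (-0.28 to 0.052), Ifitm3 (-0.32 to 0.013), Samhd1 (-0.22 to 0.074), Irf1 (-0.38 to 0.22) and Psmb8 (-1.10 to 0.038) also changed direction there. The labels do not say whether arrays with the same replicate number belong together. The changes from replicate 1 to 2 correlated at -0.0885 across genes between genotypes, which cannot settle this. With the replicate block 0 genes were called lower and 0 higher. The cause of these shifts was not tested.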
